A study of Sus scrofa with 36 samples.

Results

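The genes described here are the subunits, activators, inhibitor and assembly factors of the proteasome (symbols PSMA to PSMG followed by a number, without the immune subunits PSMB8, PSMB9 and PSMB10) and the ubiquitin-conjugating enzymes (symbols that begin with UBE2, without UBE2C). They were measured on microarrays of the pig mammary gland. Of the 6360 genes with a probe set of a single symbol, 61 met the rule, of which 38 were proteasome genes and 23 were UBE2 genes. Where a gene had several probe sets, the one of highest mean on the 36 arrays stood for it, and each animal had 1 array. All animals were peripubertal female Yucatan miniature swine aged 5 months, and all received BrdU, a label of dividing cells, 24 hours before the end. In the 32 ovariectomized animals bromocriptine was given for 8 days and then 1 of 8 treatments for 5 days, with 4 animals in each. Those treatments were haloperidol with estrogen and progesterone (HEP), haloperidol with estrogen (HE), haloperidol with progesterone (HP), haloperidol alone (H), bromocriptine with estrogen and progesterone (BEP), bromocriptine with estrogen (BE), bromocriptine with progesterone (BP) and bromocriptine alone (B). The last 4 animals had a sham operation that kept the ovaries and received saline for 13 days (sham). Every haloperidol group had therefore also received bromocriptine, and no ovariectomized group went without both drugs.

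The proteasome is the large protease that degrades proteins marked with ubiquitin. Its core particle (20S) is a barrel of alpha rings, which gate the entry, and beta rings, which hold the active sites. A regulatory particle (19S) on its end binds the ubiquitin chain, removes it and unfolds the protein with a ring of ATPases. Other caps, the PSME activators, open the core without ATP. Ubiquitin reaches its target through an activating enzyme (E1), a conjugating enzyme (E2, the UBE2 family) and a ligase (E3), and some E2 enzymes carry ubiquitin-like proteins such as NEDD8 instead. Estrogen and prolactin are hormones of mammary growth. Bromocriptine is a dopamine agonist that lowers the secretion of prolactin, and haloperidol is a dopamine antagonist that raises it. The comparisons ask how the genes answered to ovarian steroids at low and at raised prolactin drive.

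Values are log2 expression from robust multi-array averaging (RMA), and a difference of 1 is a doubling if, as read here, the log base is 2. Array medians lay between 7.83 and 7.91. The mean levels of the members ran from 5.10 to 12.1, and 60 of the 61 lay above the lower quartile of the arrays (5.90 to 6.09), the exception being UBE2QL1. The gland was recognisable from its markers, with mean levels of 12.5 for KRT8 and 11.6 for EPCAM, epithelial genes, and of 10.1 for CSN2, the milk protein beta-casein. A fat gene (FABP4, 12.4) was present as well, and in these bulk samples fewer cells of a type and less RNA per cell cannot be told apart. A pair of animals stood apart from their groups. BP A had a mean over 26 cell cycle genes of 1.33 relative to the mean of all arrays, against -1.15 to -0.93 in the other BP animals. B A had a mean over 11 skeletal muscle markers of 6.61, against -1.31 to 0.04 in the other B animals, and the highest means of all 36 animals over the proteasome genes (0.32) and over the UBE2 genes (0.34). For several comparisons the counts of called members and the proteasome medians are given with and without them. The correlations, marker means and group means below keep all 36 animals.

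**Figure D1:**
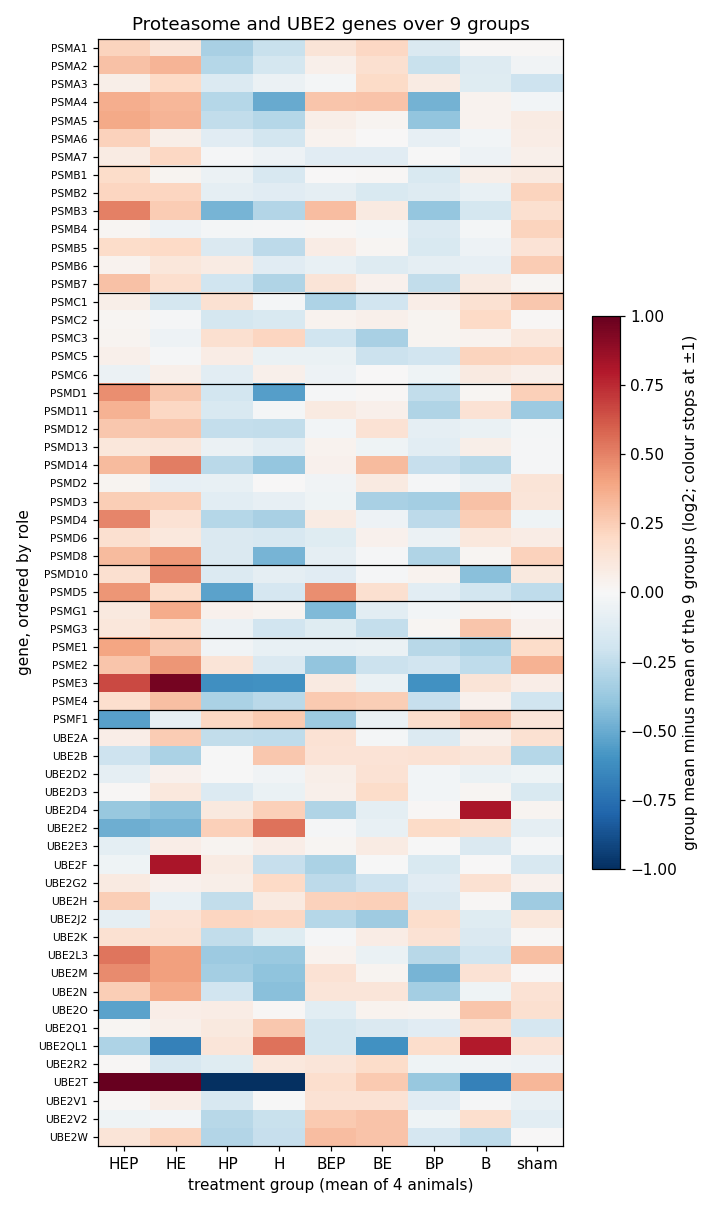
Group means (4 animals each) of the 61 genes as log2 difference from the mean of the 9 groups, in rows ordered by role and columns ordered by treatment; the colour scale stops at ±1. UBE2T passes the end of the scale in HEP, HE, HP and H, and most proteasome rows are red in HEP and HE and blue in HP and H.

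More of these genes rose than fell with estrogen, led by UBE2T, PSME3, PSMB3 and PSMA4. Between the 16 ovariectomized animals given estrogen and the 16 not given it, 30 of the 61 genes passed the test (limma, adjusted p under 0.05 over all 20792 probe sets), while 35.1% of all probe sets did. Of those, 23 rose, against 17.5% of all probe sets, and 7 fell, against 17.6%. Among the 38 proteasome genes 17 rose and 3 fell, with a median log2 difference of 0.17. Among the 23 UBE2 genes 6 rose and 4 fell, with a median of 0.14. Over all 6360 genes 1279 rose and 1182 fell, with a median of 0.03. Without BP A and B A, 34 members were called, 26 higher and 8 lower, against 42.2% of all probe sets in that fit, and the proteasome median was 0.23.

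Of the 7 alpha subunits 5 rose. All 7 had positive average differences, 4 of them in each of the 4 pairs of groups with and without estrogen. PSMA4, an alpha subunit, ran from 10.62 to 11.26 (median 11.02) with estrogen and from 9.77 to 11.09 (median 10.35) without it. All 16 animals given estrogen lay above the median of the others, and 5 lay above every one of them. The log2 difference was 0.62 ± 0.11 (SE; 1.54-fold higher; adjusted p = 6.08e-05). PSMA2, PSMA5 (both 0.42), PSMA1 (0.34 ± 0.10) and PSMA6 (0.18) also rose. The difference of PSMA7 was 0.05 (95% interval -0.08 to 0.18) and did not pass.

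Of the 7 beta subunits 3 rose, among them 2 of the 3 that carry the active sites. PSMB5, the chymotrypsin-like site, ran from 11.36 to 11.83 (median 11.57) with estrogen and from 10.81 to 11.78 (median 11.38) without. The ranges overlapped widely, and the difference was 0.27 ± 0.09 (adjusted p = 0.0201). PSMB7, the trypsin-like site, differed by 0.32 ± 0.09 (adjusted p = 0.00663). PSMB6, the caspase-like site, differed by 0.04 (95% interval -0.15 to 0.22) and did not pass. PSMB3, a structural subunit, had the largest difference of the beta ring at 0.62 ± 0.18 (adjusted p = 0.00653). Single animals of several groups were low for it, HE C (9.54) among those given estrogen and HP C (9.10), H C (9.25), BP B (8.52) and B B (9.18) among those without.

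In the regulatory particle none of the 5 ATPases rose and 2 fell. All 10 non-ATPase subunits had positive average differences, 2 of them in each of the 4 pairs of groups, and 4 rose. For PSMD3 11 and for PSMD2 9 of the 16 animals given estrogen lay below the median of the others. PSMD14, the deubiquitinase that removes the ubiquitin chain, ran from 10.24 to 11.10 (median 10.81) with estrogen and from 9.65 to 10.85 (median 10.17) without. All 16 animals given estrogen exceeded the median of the others, and the difference was 0.59 ± 0.13 (1.5-fold higher; adjusted p = 0.000675). PSMD1, the scaffold of the base, rose by 0.42 ± 0.10, PSMD8 of the lid by 0.39 and PSMD4, a ubiquitin receptor, by 0.32 ± 0.13 (adjusted p = 0.0439). Of the ATPases, PSMC1 fell by 0.24 (adjusted p = 0.0374) and PSMC3 fell by 0.25 (adjusted p = 0.0363). PSMC1 ran from 10.51 to 11.11 (median 10.72) with estrogen and from 10.51 to 11.54 (median 10.97) without, and 12 of 16 animals lay below the median of the others. Both calls lay close to the threshold: PSMC1 missed it in 13 of the 32 fits that left out 1 animal and PSMC3 in 14. PSMC4, another ATPase, was not analysed here.

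Both assembly chaperones of the regulatory particle rose, PSMD5 by 0.56 ± 0.16 and PSMD10 (gankyrin) by 0.28 ± 0.08. Neither chaperone of the core particle did, and PSMG1 differed by -0.04 and PSMG3 by -0.03. PSMG2 was not analysed here.

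Of the 4 activators 3 rose and the single inhibitor fell. PSME3, the nuclear activator PA28 gamma, ran from 7.86 to 9.45 (median 8.73) with estrogen and from 6.81 to 9.65 (median 7.81) without. The 16 animals given estrogen all lay above the median of the others, whose top values were B A (9.65) and BP A (9.34). The difference was 0.84 ± 0.18 (1.78-fold higher; adjusted p = 0.000799), and 1.06 without those animals. PSME4, the activator PA200, rose by 0.44 ± 0.15 (adjusted p = 0.0213). PSME1, the alpha subunit of the interferon-induced activator PA28, rose by 0.30 ± 0.08, while PSME2, its beta subunit, differed by 0.14 (95% interval -0.05 to 0.34). PSMF1 (PI31), an inhibitor of the core particle in vitro, ran from 8.06 to 9.30 (median 8.89) with estrogen and from 8.87 to 9.80 (median 9.26) without. Of the 16 animals given estrogen 15 lay below the median of the others, and PSMF1 fell by 0.50 (adjusted p = 0.00207). A second probe set of PSMF1 differed by 0.20 (adjusted p = 0.393), and with the mean of both the gene differed by -0.15 (adjusted p = 0.27).

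**Figure D2:**
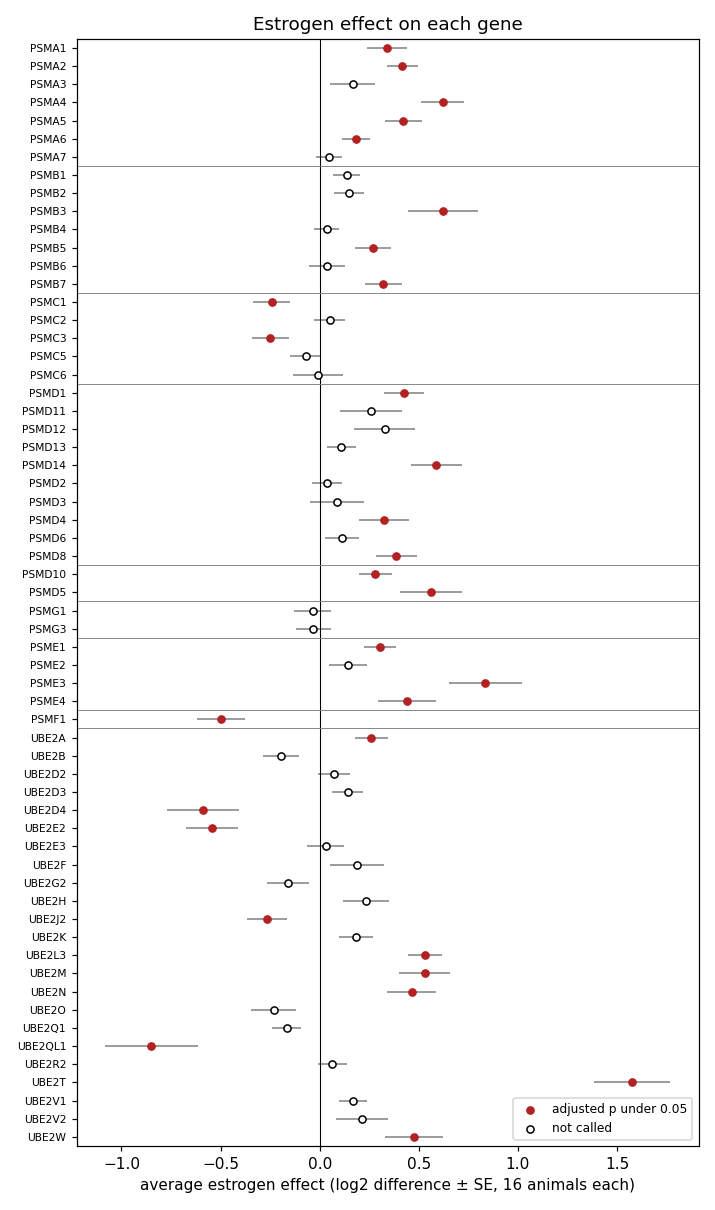
Average estrogen effect on each of the 61 genes as the log2 difference ± SE between 16 animals given estrogen and 16 not given it, in rows ordered by role; filled points passed the test. The alpha subunits lie at or right of 0, the ATPases PSMC1 and PSMC3 and the inhibitor PSMF1 lie left of it, and UBE2T (1.58) lies farthest right.

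The UBE2 family went both ways. UBE2T, the conjugating enzyme of the Fanconi anaemia DNA repair pathway, ran from 7.56 to 9.70 (median 8.47) with estrogen and from 6.09 to 9.41 (median 6.92) without. All 16 animals given estrogen exceeded the median of the others, and among those the highest was BP A. The difference was 1.58 ± 0.19 (2.98-fold higher; adjusted p = 2.61e-07). Over the 36 animals UBE2T correlated with the cell cycle mean (r = 0.94) and with the mean of the core and regulatory subunits (r = 0.68). The part of the cell cycle genes in its rise was not tested. UBE2L3, which serves HECT and RBR ligases, rose by 0.53 ± 0.09 (adjusted p = 2.77e-05), but its second probe set differed by 0.07, and the mean of both rose by 0.30. UBE2M, a NEDD8 enzyme that activates cullin ligases, rose by 0.53 ± 0.13. UBE2N, which builds the chains of DNA damage and immune signalling, rose by 0.46 ± 0.12. UBE2W, which modifies protein N termini, rose by 0.47 ± 0.15, and UBE2A, a RAD6 homologue, by 0.26. With the mean of all probe sets UBE2W rose by 0.74. In contrast, UBE2QL1 fell by 0.85, UBE2D4 fell by 0.59, UBE2E2 fell by 0.54 and UBE2J2, an enzyme of the endoplasmic reticulum membrane, fell by 0.27. With the mean of all probe sets UBE2D4 fell by 0.38. UBE2QL1 lay among the dim probe sets, and UBE2J2 missed the threshold in 18 of the 32 fits without 1 animal. UBE2D3 (0.14) and UBE2G2 (-0.16) did not pass. UBE2J1, UBE2L6 and UBE2S were not analysed here.

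The neighbours of these genes in the pathway also moved in both directions with estrogen. None of the 2 ubiquitin genes UBB and RPS27A passed. Of 5 activating-type enzymes SAE1, of the SUMO pathway, rose by 0.58 and ATG7, of autophagy, fell by 0.53. SEM1, a small lid subunit, was the 1 of 4 proteasome-associated factors called (0.55). VCP, the unfoldase that extracts proteins for the proteasome, rose by 0.51 with its cofactors UFD1 and FAF2 (both 0.35), which made 3 of 5 in that list. Of 4 factors of endoplasmic reticulum-associated degradation EDEM2 (0.50) and DERL1 (0.43) rose. Of 15 cullin and NEDD8 genes 3 rose, led by COPS3 (0.54), and 2 fell, led by COPS7A (-0.46). The anaphase-promoting complex had 5 higher and 2 lower of 10, with CDC20 at 2.53 and CDC26 at 0.64. UBE2C, the conjugating enzyme of that complex, rose by 3.06.

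Other groups of genes moved with estrogen in the same animals. All 26 cell cycle genes rose, with a median difference of 1.78. Their mean ran from -0.05 to 1.47 with estrogen and from -1.61 to 1.33 without. Skeletal muscle markers fell in 9 of 11, with means of -1.57 to -0.81 against -1.31 to 6.61. Adipocyte markers fell in 6 of 9 (-1.64 to 0.42 against -0.88 to 1.16), endothelial markers in 5 of 8 (-0.83 to 0.16 against -0.37 to 0.96) and leukocyte markers in 3 of 9 (-0.73 to 0.44 against -0.52 to 0.74). Interferon-response genes fell in 6 of 16. Markers of fibroblasts rose in 3 of 6, of myoepithelium in 2 of 4 and of luminal epithelium in 2 of 11, and none of the 6 milk markers passed. Their part in the changes of the proteasome genes was not tested. Over the 36 animals the mean of the proteasome genes correlated with that of the cell cycle genes (r = 0.72, and 0.55 for deviations from the group means), with the leukocyte markers (r = -0.73, and -0.55 for deviations) and with the muscle markers (r = -0.19, and 0.37 for deviations, where the sign turned). These values share arrays and scaling, include BP A and B A, and are given as a description.

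The test for an estrogen effect that differed between the drug backgrounds called few members, at a share close to that of all probe sets. With haloperidol the median difference of the 38 proteasome genes was 0.35 (0.34 for HE against H and 0.32 for HEP against HP). With bromocriptine it was 0.07 (-0.03 for BE against B and 0.14 for BEP against BP). The difference of these effects was positive for 35 of 38 proteasome genes and 14 of 23 UBE2 genes, against 3375 of all 6360 genes. Its test, the interaction of estrogen and haloperidol, called 4 of the 61 members, all higher, against 7.48% of all probe sets (3.87% higher). Without BP A and B A the difference was positive for 32 of 38 proteasome genes, its median over them was 0.16 against 0.05 over all genes, and of the members PSMG3 and UBE2T were called, against 5.03% of all probe sets. Other lists differed between the backgrounds in the same animals. The cell cycle mean ran from 1.06 to 1.47 in animals given estrogen against -1.51 to -0.49 without it under haloperidol, and from -0.05 to 0.65 against -1.61 to 1.33 under bromocriptine. The adipocyte mean ran from -1.64 to -0.15 against 0.23 to 1.02 under haloperidol, and from -0.38 to 0.42 against -0.88 to 1.16 under bromocriptine. The luminal epithelial mean had a median of 0.43 with estrogen against -0.07 without it under haloperidol. Under bromocriptine these medians were -0.21 and 0.09, and the ranges overlapped in both backgrounds. The part of these lists in the interaction was not tested.

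UBE2T had the largest interaction of the 61 members. With haloperidol it ran from 8.59 to 9.70 (median 9.17) in animals given estrogen and from 6.09 to 7.21 (median 6.69) in those without, with no overlap. With bromocriptine it ran from 7.56 to 8.35 (median 8.21) in animals given estrogen and from 6.77 to 9.41 (median 7.06) without, and BP A held the top value. Estrogen differences were 2.41 with haloperidol and 0.74 with bromocriptine, and the interaction was 1.67 ± 0.38 (95% interval 0.89 to 2.45; adjusted p = 0.0109). It was 1.35 without BP A (adjusted p = 0.0048).

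PSME3 ran from 8.76 to 9.45 with haloperidol and estrogen against 7.32 to 8.39 with haloperidol and no estrogen. With bromocriptine it ran from 7.86 to 8.70 in animals given estrogen against 6.81 to 9.65 without, so the ranges parted with haloperidol and overlapped with bromocriptine. The estrogen difference was 1.42 with haloperidol and 0.25 with bromocriptine, and the interaction was 1.17 ± 0.37 (adjusted p = 0.0485). It fell short of the threshold in 23 of the 32 fits without 1 animal, and it was 0.91 without BP A (adjusted p = 0.0716) and 0.72 without BP A and B A (adjusted p = 0.0946). UBE2L3 had an interaction of 0.62 ± 0.17 (adjusted p = 0.0297), which missed the threshold without BEP B (adjusted p = 0.0534) or BE D (0.0508) and, at 0.44, with the mean of its probe sets (adjusted p = 0.0957). PSMG3, a core assembly chaperone with a difference of 0.27 with haloperidol and -0.33 with bromocriptine, had an interaction of 0.60 ± 0.18 (adjusted p = 0.0382) and missed the threshold in 14 of 32 such fits. The active-site subunits PSMB5 (0.24), PSMB6 (0.10) and PSMB7 (0.32) had interactions that did not pass, as did PSMD1 (0.62; adjusted p = 0.0529), PSMD4 (0.60) and PSMD14 (0.30). The count of 4 became 1 without BEP B or BE D and 9 without BP B, and 2 without any 1 of HEP A, B B, H B, HP B, BEP C, H C, HE C, HP C, BEP D, H D and HE D.

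**Figure D3:**
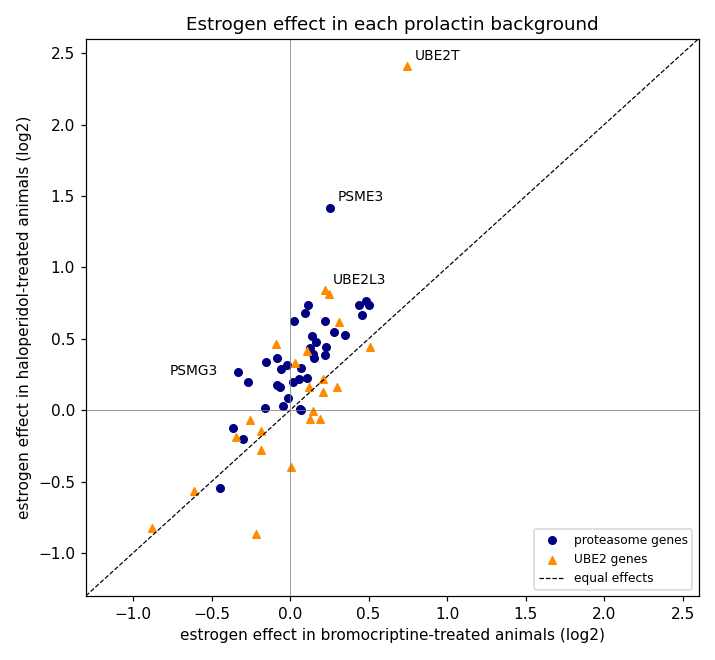
Estrogen effect on each gene in haloperidol-treated animals (vertical axis) against that in bromocriptine-treated animals (horizontal axis), both as log2 differences over 8 animals against 8; circles are proteasome genes, triangles are UBE2 genes and the dashed line marks equal effects. Most circles lie above the line (35 of 38), and the 4 genes called for the interaction are named.

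The direct comparison of HE with H called more members than any other single pair of groups compared. It called 17 of the 61 members, against 19.9% of all probe sets, of which 15 rose (9.81% of all probe sets) and 2 fell (10.1%). Of the proteasome genes 9 rose and none fell. PSME3 had 9.18, 9.44, 9.35 and 9.45 in HE, against 8.38, 7.57, 7.80 and 7.41 in H. All HE animals exceeded all H animals, and the difference was 1.57 ± 0.37 (2.96-fold; adjusted p = 0.00342). PSMD8 (0.90), PSMD14 (0.89), PSMA4 (0.84), PSMD1 (0.82) and PSMA5 (0.63) followed, each with all 4 HE animals above all 4 H animals. UBE2T had 9.06, 8.59, 9.31 and 9.28 in HE, against 6.09, 7.03, 7.21 and 6.66 in H, a difference of 2.32 ± 0.38 (4.98-fold; adjusted p = 0.000157). UBE2F, the second NEDD8 conjugating enzyme, had 9.20, 9.95, 9.82 and 9.80 in HE, against 8.87, 8.86, 8.65 and 8.20 in H, and rose by 1.05 ± 0.27. The other pairs did not share this rise of UBE2F, with -0.13 for HEP against HP, -0.005 for BE against B and -0.17 for BEP against BP. UBE2M (0.81) and UBE2N (0.79) rose as well. UBE2E2 fell by 1.01, with 8.93, 8.87, 9.47 and 9.44 in HE against 9.86, 10.13, 10.41 and 10.35 in H, and UBE2B, a RAD6 homologue, fell by 0.58. Without H C the count was 11, and PSMD14 (adjusted p = 0.0624) and PSMA5 (0.0515) were among those lost. UBE2M also missed the threshold without H C or HE D (adjusted p up to 0.129), UBE2N without HE A or H B (up to 0.131, with a difference of 0.52) and UBE2B without H A, H D or HE B (up to 0.112). PSMD1 was 0.48 with the mean of its probe sets (adjusted p = 0.0506).

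In the same 8 animals 25 of 26 cell cycle genes rose, while 5 of 11 muscle markers, 5 of 9 adipocyte markers, 4 of 8 endothelial markers and 3 of 9 leukocyte markers fell. The muscle mean ran from -1.39 to -1.02 in HE against 0.40 to 4.88 in H, where H C had the 4.88 and the other H animals lay at 1.26 or below. The adipocyte mean ran from -1.12 to -0.48 against 0.73 to 1.02, the leukocyte mean from -0.70 to -0.16 against 0.19 to 0.74, and the cell cycle mean from 1.06 to 1.38 against -1.27 to -1.03. Their part in the changes of the members was not tested.

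Estrogen added to bromocriptine alone gave no call among the members with all animals weighted equally. BE against B called 0 of 61, against 3.78% of all probe sets, and its proteasome median was -0.03. At an unadjusted p under 0.05 stood 9 of the 61 members and 3470 of all 20792 probe sets. UBE2T had 8.35, 8.15, 8.32 and 7.76 in BE, against 7.34, 7.54, 7.14 and 6.80 in B, with no overlap (difference 0.94 ± 0.38; adjusted p = 0.185). PSME3 had 8.67, 8.50, 8.30 and 7.86 in BE, against 9.65, 8.57, 8.06 and 7.82 in B (difference -0.19; 95% interval -0.94 to 0.56). The 9.65 was B A, which stood apart from its group, so the sign of this difference leans on that animal. The other B animals ran from 7.82 to 8.57, against 7.86 to 8.67 in BE. Without B A and BP A the proteasome median was 0.09 and UBE2T was called. Without B C, UBE2QL1 was called. With array weights PSMC5, PSMD14 and UBE2T were called, against 9.13% of all probe sets. In the same comparison 18 of 26 cell cycle genes rose.

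For haloperidol in place of bromocriptine, the only members called were the 2 subunits of the interferon-linked activator PA28. Over 16 animals on haloperidol and 16 on bromocriptine the comparison called 2 of the 61, both higher, against 6.98% of all probe sets (3.85% higher). PSME2 ran from 9.76 to 10.73 (median 10.27) with haloperidol and from 9.28 to 10.48 (median 9.87) with bromocriptine, and 14 of 16 haloperidol animals lay above the median of the others. The difference was 0.44 ± 0.10 (1.36-fold; adjusted p = 0.00434). PSME1 ran from 11.52 to 12.15 (median 11.76) with haloperidol and from 10.91 to 11.79 (median 11.53) with bromocriptine. Of the 16 haloperidol animals 15 exceeded the median of the others, and the difference was 0.32 ± 0.08 (1.25-fold; adjusted p = 0.0116). PSMB8 (0.40 ± 0.10; adjusted p = 0.00899) and PSMB10 (0.40 ± 0.12; adjusted p = 0.0371), immunoproteasome subunits that work with PA28, rose too. Of the interferon-response genes 3 of 16 rose, MX2 (0.86), MX1 (0.70) and TAPBP (0.38), and the mean of that list ran from -0.51 to 0.69 with haloperidol against -0.81 to 0.36 with bromocriptine. All 6 milk markers rose, with a median difference of 3.71, and 5 of 26 cell cycle genes rose. The mean of the luminal markers ran from -0.44 to 0.87 (median 0.31) with haloperidol and from -1.60 to 0.54 (median -0.09) with bromocriptine. For that mean 12 of 16 haloperidol animals lay above the median of the others. The part of these lists in the PA28 result was not tested. PSMB5 (0.02), PSMD14 (0.08) and PSME3 (0.21) did not pass. Without BP A and B A the count was 5, against 11.6% of all probe sets, with PSMD10, PSME3 and PSMG1 added.

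Among single pairs of groups, PSME2 had 10.23, 10.70, 10.73 and 10.57 in HE, against 9.96, 9.87, 9.89 and 9.88 in BE. All HE animals exceeded all BE animals, and the difference was 0.66 ± 0.19 (adjusted p = 0.0239). It was the 1 member called between HE and BE, against 10.5% of all probe sets, while PSMD10 (0.49) had an adjusted p of 0.0503. That call was lost without BE B, BE D, HE B, HE C or HE D, and the count was 3 without HE A or BE C. In the 8 fits with another setting and all animals kept, the count ran from 3 to 8, and PSME2 was among them each time. H against B called none of the 61, against 0.0337% of all probe sets, with 8 of the 61 members and 2191 of the 20792 probe sets at an unadjusted p under 0.05, and its proteasome median was -0.16, or -0.01 without BP A and B A.

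Ovariectomy with bromocriptine changed no member past the threshold. B against sham called 0 of 61, against 4.18% of all probe sets, with 8 of the 61 members and 4044 of the 20792 probe sets at an unadjusted p under 0.05. PSME2 had 9.81, 10.13, 9.55 and 9.97 in B, against 10.40, 10.43, 10.48 and 10.55 in sham. All B animals lay below all sham animals, and the difference was -0.60 ± 0.19 (adjusted p = 0.0681). PSME1 differed by -0.50 (adjusted p = 0.0681), PSMD10 by -0.51 (adjusted p = 0.0718) and UBE2T by -1.01 (adjusted p = 0.128). Without B D, PSME1 and PSMD10 were called, and without BP A and B A, UBE2T was. In the same comparison UBE2C fell by 3.35, and 21 of 26 cell cycle genes fell.

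Against the intact animals, HE called 1 of 61, where 3.61% of all probe sets were called. That was UBE2F, with 9.20, 9.95, 9.82 and 9.80 in HE, against 8.82, 8.13, 9.16 and 8.75 in sham, without overlap. The difference was 0.97 ± 0.27 (adjusted p = 0.0405). The call was lost without any 1 of HE B, HE C, HE D, sham A, sham B and sham D. In HEP, which also received haloperidol and estrogen, the mean of UBE2F lay below those of HP, B and BE. PSME3 (0.89; 95% interval 0.14 to 1.64; adjusted p = 0.173) and UBE2T (0.85; 95% interval 0.07 to 1.63; adjusted p = 0.218) were higher in value without passing. Progesterone called none of the 61 on average, against 0.0914% of all probe sets, with 1 of the 61 members and 1024 of the 20792 probe sets at an unadjusted p under 0.05. The interaction of estrogen and progesterone called none, against 0.25%, with 2 of the 61 members (PSMD10 and UBE2F) and 2158 of the 20792 probe sets at an unadjusted p under 0.05.

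**Figure D4:**
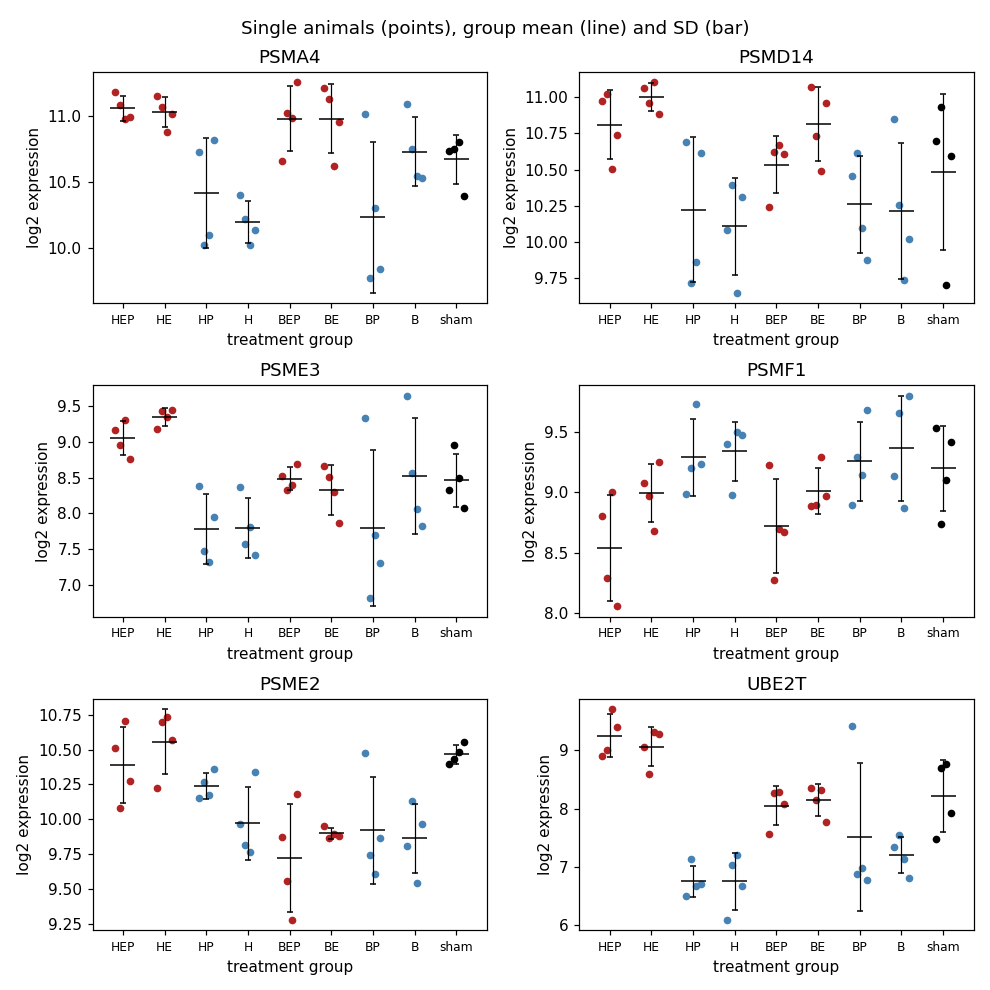
Log2 expression of 6 genes in every animal (points) by treatment group, with group mean (line) and SD (bar, n = 4); red marks groups given estrogen, blue ovariectomized groups without it and black sham. UBE2T and PSME3 in HEP and HE lie above all HP and H animals, and BP A is the high BP point of UBE2T (9.41).

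Across the 9 groups the highest mean fell in HE or HEP for 25 of the 38 proteasome genes and the lowest in H or HP for 19, against 8 and 8 of the 23 UBE2 genes. Group means of UBE2T ran from 9.25 ± 0.37 in HEP and 9.06 ± 0.33 in HE, through sham (8.22 ± 0.62), BE (8.15 ± 0.27), BEP (8.05 ± 0.34), BP (7.50 ± 1.27) and B (7.20 ± 0.31), to 6.75 ± 0.27 in HP and 6.74 ± 0.49 in H (SD, n = 4). The means of sham, BE and BEP differed by less than their SDs, as did those of HEP and HE and of HP and H. For PSME3 the means were 9.35 ± 0.13 in HE and 9.05 ± 0.24 in HEP, then 8.52 ± 0.81 in B, 8.49 ± 0.16 in BEP, 8.46 ± 0.37 in sham and 8.33 ± 0.35 in BE, and 7.79 ± 1.09 in BP, 7.79 ± 0.42 in H and 7.78 ± 0.49 in HP. From B to BE and from BP to HP in that order, neighbouring means differed by less than their SDs.

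The subunits varied together loosely. Over all 36 animals the median pairwise correlation was 0.31 among the 29 core and regulatory subunits and 0.23 for deviations from the group means. Among the 23 UBE2 genes it was 0.00, among 26 cell cycle genes 0.84, and over all genes 0.00. Of the 14 members with more than 1 probe set, 12 had the same sign of the estrogen effect in all of them, the exceptions being PSMF1 and UBE2H. Among those called, no other probe set passed for PSMD1, PSMF1 and UBE2L3, while 1 did for UBE2A, UBE2D4, UBE2T and UBE2W. PSMD11, UBE2E3 and UBE2V1 did not pass, but 1 other probe set of each did, with the same sign.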

How the data were processed

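Pig Affymetrix arrays of mammary gland RNA, 1 per animal, were used. The authors deposited a table of log2 expression values per probe set, made with RMA per the submitters' processing notes; its log base is not given in the sources used here and was read as 2. Probe sets were named from GEO's platform annotation: of 20792, 9149 had 1 symbol, 178 several and 11465 none. Detection calls were not used, and the number of arrays limits the precision.

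Differences were fitted with limma 3.58.1 in R 4.3.3 (1 mean per group, 9 groups, 27 residual degrees of freedom, empirical Bayes moderation), with Benjamini-Hochberg adjustment over all 20792 probe sets within each of 11 comparisons and a threshold of 0.05. Averages and interactions weighted the 8 ovariectomized groups equally. Correlations and list means used pandas 2.3.3, and figures matplotlib 3.10.9. The fit was tested on simulated data. Nothing in the labels says whether animals were housed or processed in batches.

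Named in each comparison were up to 6 proteasome and 4 UBE2 genes past the threshold, by size of change and separately for each sign, fixed members by role, and from each other list the 3 called genes with the largest change; further genes were named after their values were seen. The members and lists were chosen with earlier results of these data known. Alternatives were dim probe sets left out, median centring, a second quantile normalization, array weights, moderation with a variance trend and robust hyperparameters, the title's letter as a block, the mean of a gene's probe sets, only the groups compared, each array left out, and, chosen after seeing the data, BP A and B A left out. Sequences and coordinates were not used here.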

Additional observations from a re-analysis of the deposited data

Results flagged for a closer look

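Single animals of 4 lay far from the rest of their group for several of the named genes, in 7 of 153 combinations of gene and group, where chance alone gives about 1 in 20. UBE2T was 9.41 in BP A, against 6.77 to 6.97 in the other BP animals. PSMB3 was 9.10 in HP C (others 9.89 to 10.01) and 9.25 in H C (others 10.02 to 10.18). PSMA4 was 10.39 in sham D (others 10.74 to 10.80), and PSMD14 was 10.24 in BEP A (others 10.60 to 10.67). PSMG3 was 9.04 in H A (others 8.61 to 8.67), and UBE2L3 was 9.68 in sham C (others 9.06 to 9.15).

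The interaction test of estrogen with haloperidol or bromocriptine called 4 of the 61 members, a share close to the 7.48% of all probe sets. The differences were 1.17 for PSME3, 0.60 for PSMG3, 0.62 for UBE2L3 and 1.67 for UBE2T (haloperidol minus bromocriptine, log2). PSME3 missed the threshold in 23 of the 32 fits that left out a single animal and in 4 of 9 other settings. PSMG3 missed it in 14 of those 32 fits, and UBE2L3 in 2 of them and in 2 of the 9 settings. UBE2T kept its call throughout.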

How the results depend on the processing

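No called gene named for its size of change reversed under any alternative (37 results, 1166 alternative values, of which 116 lost the call). Of the 37, 22 kept their call throughout. The changes of members named only for their role, or after their values were seen, were not followed in this way. The members called for estrogen (30) ranged from 28 to 41 over other settings and from 25 to 33 over fits without 1 animal. Progesterone, its interaction with estrogen, and H against B stayed at 0 throughout. Whether the letters of the titles pair the animals is not stated. Same-letter deviations had a median correlation of 0.0453 over 144 pairs (-0.41 to 0.46, 52 over 0.1). Pairs of different letters were not compared, so these values cannot decide it. With the replicate block the counts were 29 for estrogen, 2 for haloperidol and 5 for the interaction of estrogen and haloperidol. They were 17 for HE against H, 3 for HE against BE and 1 for HE against sham, and 0 for the others. Array weights gave 2 for B against sham (PSMD10, PSME2), 4 for haloperidol (PSMD10, PSME1, PSME2, PSMG1), 3 for BE against B (PSMC5, PSMD14, UBE2T), 8 for HE against BE and 5 for HE against sham. The variance trend gave 1 for B against sham (PSME1) and 4 for HE against BE, as did the mean of probe sets (1 and 4). HE against BE was 3 without dim probe sets, with median centring, with the second quantile normalization and with only the groups compared, which left 0 for HE against sham. Without BP A and B A the counts were 1 for B against sham, 5 for haloperidol, 2 for the interaction and 1 for BE against B. Leaving out 1 animal, counts ranged from 0 to 2 for B against sham (2 without B D), 2 to 3 for haloperidol, 1 to 9 for the interaction, 0 to 1 for BE against B, 11 to 16 for HE against H (11 without H C), 0 to 3 for HE against BE and 0 to 1 for HE against sham. All of these are counts of members, and the calls over all probe sets moved as well. Without BP A those calls went from 7305 to 8668 for estrogen, from 1451 to 2431 for haloperidol and from 1556 to 1029 for the interaction. The members called in that fit were 33, 3 and 3. The cause was not tested.

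With 4 animals a group, and whole tissue, small differences such as those of PSMC1, PSMC3 and UBE2J2 lie at the threshold. UBE2QL1 is dim, and the deposited values carry no detection calls.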
